A study of Homo sapiens with 6 samples.

Results

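The genes described here are 10 that build, coat or empty the lipid droplet, out of 58478 genes in the table. They were chosen by name: the hypoxia-inducible droplet protein HILPDA, the perilipin coat genes PLIN2, PLIN3, PLIN4 and PLIN5, the lipase PNPLA2 with its coactivator ABHD5 and its inhibitor G0S2, and the triglyceride synthases DGAT1 and DGAT2. The choice was made with earlier results of these data known. RNA came from cells labelled Huh7, a human hepatocellular carcinoma line, of wild-type genotype. In the hypoxia group, 3 libraries came from cells kept for 24 h in a chamber at 1% oxygen, and in the normoxia group, 3 libraries came from cells kept for 24 h at 21% oxygen. Both groups grew in DMEM with serum and antibiotics. The labels call the libraries biological replicates of 1 line without saying how the cultures were separated. The p-values therefore reflect only how these libraries vary among themselves, and that variation may be technical. Ribosomal RNA was depleted before strand-specific, paired-end sequencing.

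Cells store fatty acids as triglyceride in lipid droplets, whose surface is covered by perilipins that limit the access of lipases. Adipose triglyceride lipase, the product of PNPLA2, starts the breakdown of stored triglyceride, is activated by ABHD5, and is inhibited by the small proteins G0S2 and HILPDA. DGAT1 and DGAT2 are unrelated enzymes that both add the last fatty acid to make triglyceride. Droplets are known to accumulate in many cells at low oxygen, and HILPDA is a known target of the hypoxia-inducible factors.

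The HILPDA reading frame is shown because this gene had the largest change of the 10. It comes from transcript HILPDA-201 of GENCODE release 29 on chromosome 7, holds 192 bases and 63 codons before the stop, and is printed 5′ to 3′ with the start and stop codons in capitals.
HILPDA: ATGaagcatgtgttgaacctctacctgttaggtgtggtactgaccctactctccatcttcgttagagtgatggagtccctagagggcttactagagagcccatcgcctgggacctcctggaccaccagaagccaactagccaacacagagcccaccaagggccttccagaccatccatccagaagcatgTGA

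Promoters of 7 of the 10 genes were found in the RefSeq promoter table (GRCh38.p14). HILPDA, DGAT1 and DGAT2 are not in it. The 250 bases before the gene start were searched on both strands for ACGTG and GCGTG, the core letters of the element that hypoxia-inducible factors bind. Of the 7 genes, 5 held at least 1 match (PLIN2, PLIN3, PLIN5, G0S2 and ABHD5, the last at 2 of its 3 listed starts), and PLIN4 and PNPLA2 held none. Among 34943 promoters of the same length, 18.5% held ACGTG, 32.2% held GCGTG and 43.2% held either. A match describes letters in this window and is not a shown binding site. The promoters of PLIN2, PLIN3 and PNPLA2 follow because they contrast a coat gene with nearly no RNA, the coat gene that supplied almost all perilipin RNA, and the lipase. Each is 5′ to 3′ along the gene, ends at the base before the start, and has the matches in capitals. The 2 matches of PLIN2 that overlap in CACGTG are ACGTG read on either strand, and CACGC in PLIN3 is GCGTG on the other strand.
PLIN2 (chr9:19127493-19127742, minus strand): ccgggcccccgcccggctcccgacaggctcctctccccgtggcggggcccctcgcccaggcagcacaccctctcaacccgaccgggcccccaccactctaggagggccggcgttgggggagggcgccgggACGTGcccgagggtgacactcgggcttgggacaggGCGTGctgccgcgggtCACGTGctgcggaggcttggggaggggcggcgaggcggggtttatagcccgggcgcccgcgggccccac
PLIN3 (chr19:4867668-4867917, minus strand): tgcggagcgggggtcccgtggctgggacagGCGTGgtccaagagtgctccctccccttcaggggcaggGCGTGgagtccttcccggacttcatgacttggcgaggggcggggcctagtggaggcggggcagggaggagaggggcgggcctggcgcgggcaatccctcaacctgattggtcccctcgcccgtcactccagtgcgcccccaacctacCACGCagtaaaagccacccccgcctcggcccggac
PNPLA2 (chr11:818664-818913, plus strand): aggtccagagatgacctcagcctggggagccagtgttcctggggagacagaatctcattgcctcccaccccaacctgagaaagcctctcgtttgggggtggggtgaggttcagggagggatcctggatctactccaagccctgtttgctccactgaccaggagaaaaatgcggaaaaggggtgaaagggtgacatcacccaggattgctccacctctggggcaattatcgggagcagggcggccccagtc
In these windows PLIN2 held 4 matches (of them 1 GCGTG), PLIN3 held 3, all GCGTG, and PNPLA2 held 0.

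Hypoxia libraries C4 to C6 and normoxia libraries C1 to C3 are named by their column in the table and held between 37621426 and 40794783 expected counts each. All 10 listed low-oxygen response genes, among them CA9 and VEGFA, were higher in hypoxia, with a median log2 change of 2.98. That list was chosen with earlier results of these data known, so this describes the libraries and is no independent check. The hepatocyte markers did not bear out the label: 17 of 20 were under 1 CPM (counts scaled to a common library size) in both groups, and AFP, APOA1, APOH, TTR, G6PC1 and AHSG had 0 counts. The other 3 were TF, at 12.1 CPM in hypoxia and 8.24 CPM in normoxia, HNF4A, at 7.01 and 1.30 CPM, and SERPINA1, at 1.83 and 0.067 CPM. Summed over the 20 markers, the level was 21.1 to 22.02 CPM in hypoxia and 9.10 to 10.8 CPM in normoxia, most of it from TF. Of 11 adipocyte markers in the table, which matter here because fat cells are rich in PLIN1 and PLIN4, FABP4, UCP1 and RETN had 0 counts and 8 were under 1 CPM in both groups. Their sum was 23.8 to 24.5 CPM in hypoxia and 11.2 to 12.5 CPM in normoxia, most of it from CFD. The 10 myeloid markers summed to 48.2 to 57.0 CPM in hypoxia and 7.25 to 7.32 CPM in normoxia, most of it CD68, while PTPRC and TYROBP had 0 counts. Of the tested markers, 3 of 3 hepatocyte, 2 of 3 adipocyte and 2 of 3 myeloid genes were higher in hypoxia and none was lower. Among all genes tested, 36.5% were called higher and 36.3% lower. The 2 adipocyte genes were CFD and PLIN1, and PLIN1 is also a droplet gene read below. The part of these marker differences in the results below was not tested, and in bulk RNA fewer cells of a type and less RNA per cell cannot be told apart.

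Among the 10 genes, 8 passed the low-count filter and were tested with edgeR's quasi-likelihood test across 17396 genes. At an adjusted p under 0.05, 2 were higher in hypoxia (HILPDA and, narrowly, PLIN3) and 6 were lower (PLIN4, PLIN5, PNPLA2, ABHD5, DGAT1 and DGAT2). Over all tested genes, 36.5% were called higher and 36.3% lower, so being called is common in this comparison. PLIN2 and G0S2 were below the filter. Scaled by library totals instead of TMM, 1 gene was higher and 6 were lower, since PLIN3 was then not called.

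**Figure D1:**
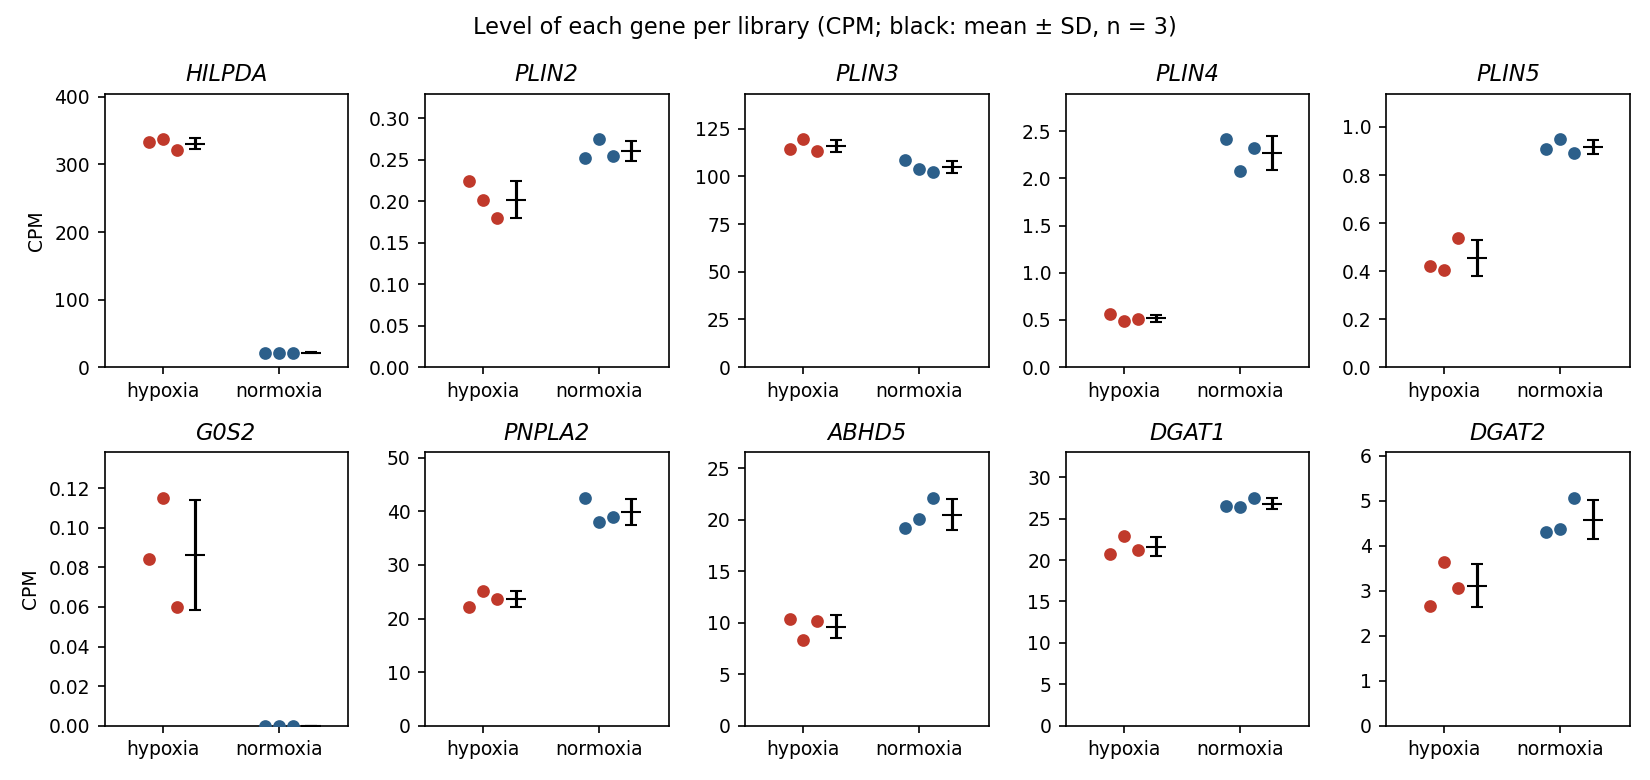
Level of each of the 10 genes in each library, in CPM, with hypoxia left of normoxia and the mean ± SD in black (n = 3). Every panel starts at 0 and has its own scale. HILPDA reached 321 to 338 CPM in hypoxia, above 20.9 to 21.7 CPM in normoxia, while PNPLA2, ABHD5, DGAT1, DGAT2, PLIN4 and PLIN5 were lower in every hypoxia library than in any normoxia library. PLIN2 was so too, at counts below the filter. Of all genes tested, 37.6% had every hypoxia library below every normoxia library and 38.1% had the opposite.

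HILPDA, an inhibitor of the lipase, had the largest change, and in hypoxia the highest level of the 10 genes. It stood at 333, 338 and 321 CPM in hypoxia libraries C4, C5 and C6, against 21.7, 20.9 and 21.5 CPM in normoxia libraries C1, C2 and C3. All hypoxia libraries lay far above all normoxia libraries. The mean was 331 ± 8.36 CPM in hypoxia and 21.4 ± 0.402 CPM in normoxia (SD, n = 3). HILPDA rose 15.5-fold (log2 change 3.95 ± 0.05 SE; edgeR, adjusted p = 2.09e-12). Over 17 other settings its log2 change ran from 3.55 to 4.04. Ranked by FPKM (expected counts divided by transcript length and library total, summed over a gene's transcripts) among 19867 protein-coding genes, its rank from the top was 234 in hypoxia and 4415 in normoxia. It held 0.0313% of expected counts in hypoxia and 0.00225% in normoxia.

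By log2 change HILPDA had rank 352 from the top among all 17396 genes tested. Its rank was 52 among the 8929 protein-coding genes at a mean of 10 CPM or more in hypoxia, a filter on the group in which such genes are high, so this rank is only a description. In that order the 3 genes next above it were RNF223 (4.01), KCTD11 (3.995) and SERPINB2 (3.95), and the 3 next below were BIRC7 (3.87), CCR10 (3.83) and ENO2 (3.83), as log2 changes. RNF223, KCTD11, SERPINB2, BIRC7 and CCR10 were at 0.784 to 4.37 CPM in normoxia, under that limit. Of these 6 genes, ENO2, a glycolytic enolase, had the highest level, at 633.8 CPM in hypoxia and 44.7 CPM in normoxia. This likeness is only the closeness of 2 log2 changes over the same 6 libraries.

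G0S2, the other small inhibitor of the lipase, was nearly absent. Its expected counts were 3, 4 and 2 in the hypoxia libraries and 0 in every normoxia library. The 9 counts of hypoxia have an exact Poisson 95% interval of 4.12 to 17.1, and the 0 counts of normoxia one of 0 to 3.69, which cover counting error only. G0S2 passed in edgeR when no low-count filter was used (adjusted p = 0.0328) and did not in DESeq2 (adjusted p = 0.0885). No fold is given, because the hypoxia counts lie near the floor of 3 counts per library. Of the 2 inhibitors, then, HILPDA supplied nearly all the RNA, at a mean of 233 FPKM in hypoxia for HILPDA and 0.0876 FPKM for G0S2.

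The lipase gene PNPLA2 was lower in hypoxia. Its level was 22.1, 25.1 and 23.6 CPM in the hypoxia libraries, against 42.6, 38.1 and 38.9 CPM in the normoxia libraries. The groups did not overlap. Of all genes tested, 37.6% had every hypoxia library below every normoxia library and 38.1% had the opposite. PNPLA2 fell 1.69-fold, a log2 change of -0.76 ± 0.07 (SE; edgeR, adjusted p = 2.28e-06). The sizes under other settings ran from -1.06 to -0.69 on the log2 scale.

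ABHD5, the coactivator of the lipase, was lower as well. It had 10.3, 8.30 and 10.2 CPM in hypoxia and 19.2, 20.1 and 22.2 CPM in normoxia. The hypoxia libraries all lay below the normoxia libraries, with C5 the lowest. ABHD5 fell 2.13-fold, a log2 change of -1.09 ± 0.10 (SE; edgeR, adjusted p = 2.60e-06). Exons of ABHD5 overlap those of ANO10 on the opposite strand by up to 170 bases, and ANO10 also fell, by 0.31 on the log2 scale (14.5 CPM in hypoxia and 17.9 CPM in normoxia). Whether counting used the strand is not given in the sources used here, so reads of that stretch may belong to either gene.

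Of the RNA ratios formed, that of the inhibitor HILPDA to its target PNPLA2 differed most, which follows from their 2 changes above and adds no evidence. Protein was not measured. In FPKM, the ratio of HILPDA to PNPLA2 was 27.3, 25.2 and 25.8 in the hypoxia libraries, against 0.952, 1.06 and 1.07 in the normoxia libraries. The 2 RNAs were thus at like levels per length in normoxia and far apart in hypoxia, a difference of 4.67 in log2 ratio. ABHD5 to PNPLA2 was 0.414 ± 0.0791 in hypoxia and 0.525 ± 0.0466 in normoxia (SD, n = 3), without overlap in FPKM (log2 difference -0.36). In expected counts the groups overlapped (exact permutation p = 0.2), and without hypoxia C5 the log2 difference in FPKM was -0.19. The ratios were formed for 7 pairs, and none with G0S2, which was at 0 in normoxia. The two-sided exact permutation test gave p = 0.1 (adjusted p = 0.14 over the 7 pairs) for each of these 2 ratios in FPKM, the smallest p that 3 against 3 libraries allow.

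PLIN3, a perilipin that moves between cytosol and droplet and is made in most tissues, carried nearly all perilipin RNA. In FPKM it made up 96.7% to 97.35% of the summed PLIN1 to PLIN5 level in hypoxia and 96.2% to 97.4% in normoxia. Its level was 114, 119 and 113 CPM in the hypoxia libraries and 108, 104 and 103 CPM in the normoxia libraries. The groups lay close together without overlapping. PLIN3 rose 1.10-fold in edgeR, a log2 change of 0.14 ± 0.04 (SE, adjusted p = 0.0119), but the change was -0.01 with library totals and -0.16 with limma on TPM, where it was called lower (adjusted p = 0.0262). Without normoxia C2 or normoxia C3 the call was lost (log2 change 0.12 in each, adjusted p = 0.0704 and 0.0671). In FPKM its means were 48.2 ± 1.43 in hypoxia and 48.1 ± 1.71 in normoxia (SD, n = 3).

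PLIN2, the perilipin best known as a general droplet marker and abundant in fatty liver, was close to absent in both groups. It had 8, 7 and 6 expected counts in the hypoxia libraries and 10.0, 11 and 10.4 in the normoxia libraries. The totals were 21 counts in hypoxia (exact Poisson 95% interval 13.0 to 32.1) and 31 in normoxia (21.1 to 44.0), whose intervals overlap. Every hypoxia library was below every normoxia library, at counts too low to pass the filter. Its mean was 0.103 FPKM in hypoxia and 0.160 FPKM in normoxia. DESeq2, which applied no such filter, gave a log2 change of -0.38 (adjusted p = 0.716). All 8 transcripts of the gene in the annotation had a row, while 48155 rows of the table have no gene in that release.

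PLIN4, a perilipin of fat and muscle, and PLIN5, a perilipin of tissues that burn fat, were both low and both fell. PLIN4 had 20, 17 and 17 expected counts in hypoxia, against 96, 83 and 91 in normoxia. This is 0.520 ± 0.0368 CPM in hypoxia and 2.27 ± 0.177 CPM in normoxia (SD, n = 3), a fall of 4.34-fold (log2 change -2.12 ± 0.22 SE; edgeR, adjusted p = 6.91e-06). PLIN4 thus had the largest fall of the 8 tested genes in that fit. PLIN5 had 15, 14 and 18 expected counts in hypoxia, against 36.3, 37.7 and 35 in normoxia. It fell 2.01-fold (log2 change -1.01 ± 0.28 SE; edgeR, adjusted p = 0.00827). PLIN5 shares up to 589 bases of exon with the same-strand gene ENSG00000267385, which held 0.106 CPM in hypoxia and 0.210 CPM in normoxia.

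PLIN1, the perilipin of fat cells, is outside the 10 genes and was read as part of a list of other droplet genes. It stood at 2.82 ± 0.198 CPM in hypoxia and 0.917 ± 0.256 CPM in normoxia (SD, n = 3), a rise of 3.07-fold (edgeR, adjusted p = 9.65e-05). Per length it was at 1.10 FPKM in hypoxia and 0.414 FPKM in normoxia. Its log2 change was 1.62 in edgeR and 0.81 with limma on log2(FPKM + 0.5), and its most abundant transcript alone did not pass (adjusted p = 0.231).

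PLIN4, PLIN5 and PLIN3 lie on chromosome 19 within 365589 bases (4502180 to 4867768, GRCh38), all on the minus strand. Of 9 other tested genes in that stretch, 3 were higher, 4 were lower and 2 did not pass. TNFAIP8L1 fell by 1.45 and TICAM1 rose by 0.92 on the log2 scale. Since 36.5% of all genes tested were higher and 36.3% lower, the counts here and around HILPDA are description only. Around HILPDA (chromosome 7, 128455849 to 128458418), 6 other genes within 100 kb were tested, of which 2 were higher, 3 were lower and 1 did not pass. HILPDA-AS1, annotated on the same strand in the release used and sharing up to 99 bases of exon with HILPDA, was at 2.14 CPM in hypoxia and 0.571 CPM in normoxia. Its reads may in part belong to HILPDA.

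Both triglyceride synthases were lower in hypoxia, DGAT1 by 1.24-fold and DGAT2 by 1.47-fold. DGAT1, an enzyme of the endoplasmic reticulum, had 20.7, 22.9 and 21.2 CPM in hypoxia and 26.5, 26.4 and 27.5 CPM in normoxia. DGAT1 had a log2 change of -0.31 ± 0.06 (SE; edgeR, adjusted p = 0.00105), without overlap of the groups. Its exons overlap those of HSF1 on the opposite strand by up to 139 bases, and HSF1 stood at 130.0 CPM in hypoxia and 133 CPM in normoxia.

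DGAT2, which also acts at the droplet surface, had 2.66, 3.63 and 3.05 CPM in hypoxia and 4.31, 4.37 and 5.07 CPM in normoxia. It fell 1.47-fold (log2 change -0.56 ± 0.15 SE; edgeR, adjusted p = 0.00751). DGAT1 was the more abundant of the pair per length, with an FPKM ratio of DGAT1 to DGAT2 of 7.56 ± 0.954 in hypoxia and 6.78 ± 0.445 in normoxia (SD, n = 3), and the groups overlapped (exact permutation p = 0.3, adjusted p = 0.3 over 7 pairs). In expected counts the groups did not overlap (log2 difference 0.25, exact permutation p = 0.1, against 0.15 in FPKM), and in FPKM the difference was 0.067 without hypoxia C6, 0.095 without normoxia C3 and 0.25 without hypoxia C5. DGAT1 to PNPLA2 was 1.12 ± 0.0540 in hypoxia and 0.801 ± 0.0209 in normoxia, without overlap (exact permutation p = 0.1, adjusted p = 0.14 over 7 pairs).

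**Figure D2:**
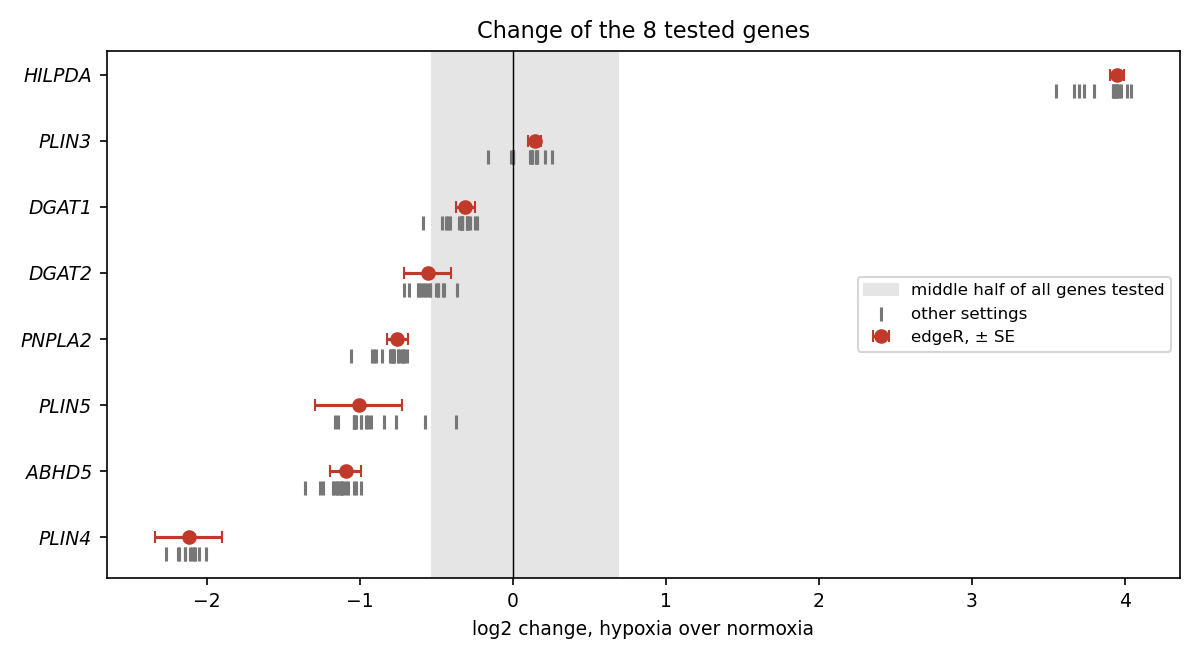
Log2 change (hypoxia over normoxia) of the 8 tested genes with edgeR ± SE (red), under the other settings except the single-transcript one (grey ticks), and the range between the quartiles of all genes tested (grey band). HILPDA stands at 3.95, 6 genes lie below 0 under each setting shown, and the ticks of PLIN3 fall on both sides of 0.

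Per length, the order of the 10 genes differed between the groups for HILPDA and PLIN3, for DGAT1 and PNPLA2, and among PLIN2, G0S2 and PLIN4. In hypoxia it ran HILPDA (233 FPKM), PLIN3 (48.2), DGAT1 (10.0), PNPLA2 (8.94), ABHD5 (3.68), DGAT2 (1.35), PLIN5 (0.262), PLIN2 (0.103), G0S2 (0.0876) and PLIN4 (0.0713), as mean FPKM. In normoxia it ran PLIN3 (48.1 FPKM), HILPDA (17.4), PNPLA2 (17.02), DGAT1 (13.6), ABHD5 (8.92), DGAT2 (2.01), PLIN5 (0.633), PLIN4 (0.345), PLIN2 (0.160) and G0S2 (0). Libraries of neighbouring genes overlapped for PLIN2 with G0S2 and G0S2 with PLIN4 in hypoxia, and for HILPDA with PNPLA2 in normoxia, and the other neighbours did not overlap.

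**Figure D3:**
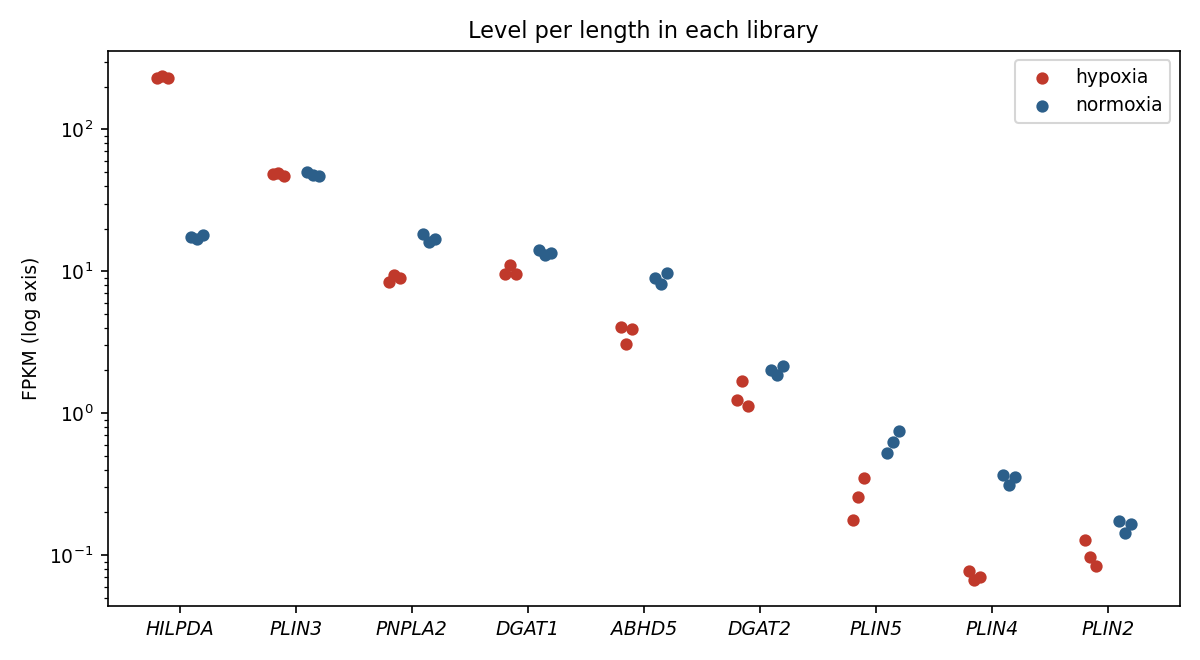
FPKM of 9 genes in each library on a log axis, hypoxia (red) left of normoxia (blue), ordered by mean level. G0S2 is left out because it was at 0 in normoxia. PLIN3 is at 46.7 to 50.1 FPKM over both groups, whereas HILPDA is at 231 to 238 FPKM in hypoxia and 17.0 to 18.0 FPKM in normoxia.

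Replicates varied little for the abundant genes. The coefficient of variation of CPM was 2.53% in hypoxia and 1.88% in normoxia for HILPDA. For PLIN3 it was 2.81% in hypoxia and 2.90% in normoxia. Among the tested genes it was highest in hypoxia for PLIN5, at 16.2%, and DGAT2, at 15.6%. In normoxia the highest was 9.28%, for DGAT2.

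The table holds 67 transcripts of the 10 genes, of which 29 passed the filter in a fit over 63530 transcripts. At an adjusted p under 0.05 in edgeR, 3 were higher in hypoxia, all of HILPDA, and 5 were lower (2 of PNPLA2 and 1 each of PLIN4, ABHD5 and DGAT1), where 16.7% of all transcripts tested were higher and 15.0% lower. RSEM divides reads between transcripts that share exons, so these values are less certain than gene sums.

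HILPDA-201 and the shorter HILPDA-202, both protein-coding, rose together. HILPDA-201 had a log2 change of 4.002 ± 0.07 (SE, adjusted p = 1.99e-06) and HILPDA-202 one of 3.29 ± 0.30 (SE, adjusted p = 0.000496) in edgeR over transcripts. HILPDA-201 held 80.9%, 72.5% and 70.5% of the gene's FPKM in the hypoxia libraries, against 70.5%, 67.4% and 65.6% in the normoxia libraries, and the groups met at 70.5%. The difference was 6.79 points (two-sided exact permutation p = 0.2, adjusted p = 0.45 over 9 genes) and 3.65 points without hypoxia C4. In expected counts it was 4.27 points and the groups did not overlap (exact permutation p = 0.1). The noncoding HILPDA-204 also rose, with a log2 change of 4.29 ± 0.27 (SE; edgeR over transcripts, adjusted p = 0.000114). Its mean share of the gene's FPKM was 7.23% in hypoxia and 5.38% in normoxia.

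The reads of PLIN4 were assigned to different transcripts in hypoxia and normoxia. PLIN4-202 held all 20, 17 and 17 counts of the hypoxia libraries. PLIN4-201 held all counts of normoxia C1 and C3 (96 and 91) and 39.4 of the 83 counts of normoxia C2, with 43.6 on PLIN4-202. As a share of FPKM, PLIN4-201 held 0% in hypoxia and 82.5% ± 30.3 in normoxia (SD, n = 3; exact permutation p = 0.1, adjusted p = 0.45 over 9 genes). The transcripts have 6502 and 6484 bases, and normoxia C2 differed from the other libraries of its group.

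PNPLA2-201, the only transcript of the lipase annotated as protein-coding, fell by 0.87 on the log2 scale (SE 0.08, edgeR adjusted p = 0.000665). Its retained-intron transcript PNPLA2-202 fell by 0.41 (SE 0.12, adjusted p = 0.0488). Of the gene's FPKM, PNPLA2-201 held 74.8%, 77.0% and 75.5% in the hypoxia libraries, against 80.1%, 79.2% and 78.2% in the normoxia libraries, without overlap (exact permutation p = 0.1, adjusted p = 0.45 over 9 genes). ABHD5-213, the longest transcript of the coactivator, fell by 1.17 (SE 0.22, adjusted p = 0.00837), and DGAT1-206 fell by 0.39 (SE 0.12, adjusted p = 0.0496), both in edgeR over transcripts.

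The retained-intron transcript DGAT1-203 held 41.8% ± 5.80 of the gene's FPKM in hypoxia and 39.4% ± 4.99 in normoxia (SD, n = 3). The share of DGAT1 that came from it thus differed by less than the spread between libraries. DGAT2-201 had 26.4, 55.9 and 0 expected counts in hypoxia and 76.8, 53.6 and 107 in normoxia, and no transcript of DGAT2 passed. When only protein-coding transcripts were summed, HILPDA and PLIN3 remained higher and the same 6 genes remained lower.

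**Figure D4:**
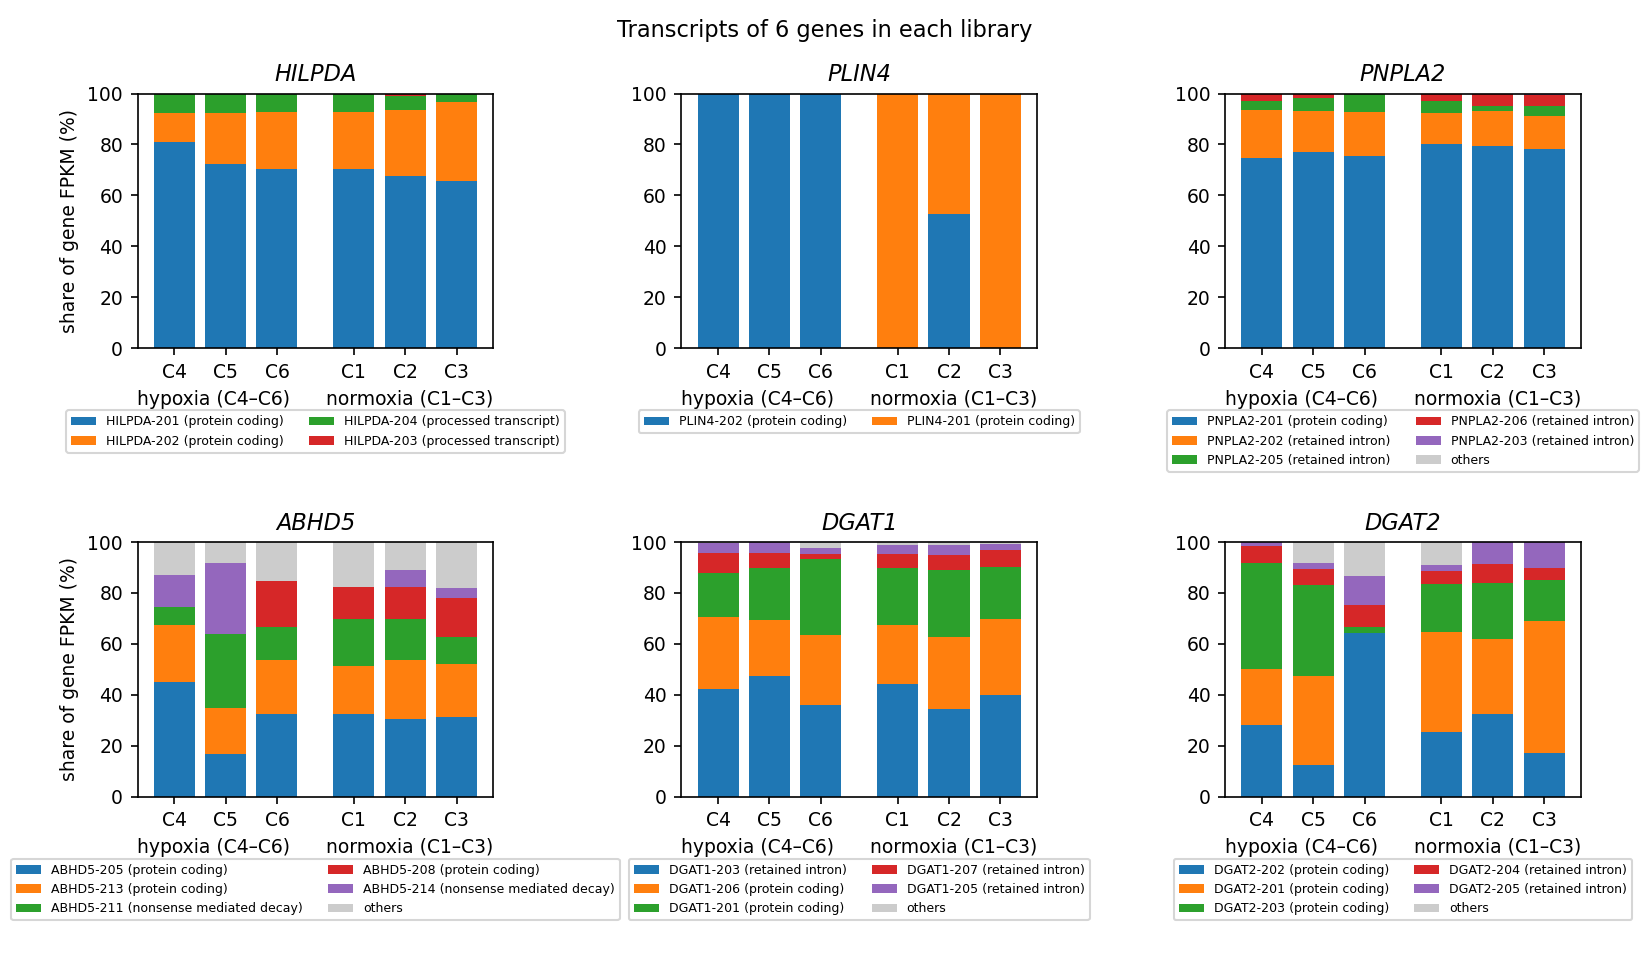
Share of each gene's FPKM held by its transcripts in each library (hypoxia C4 to C6 left, normoxia C1 to C3 right) for 6 genes. Colours are the 5 largest transcripts of a gene and grey is the rest. PLIN4 is on PLIN4-202 in hypoxia and mostly on PLIN4-201 in normoxia, while PNPLA2-201 is at 74.8% to 77.0% in hypoxia and 78.2% to 80.1% in normoxia.

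Of the other 89 genes in 6 lists of lipid storage and handling, 67 were tested, 26 were higher in hypoxia, 27 were lower and 14 did not pass. Over all genes tested 36.5% were higher and 36.3% lower, so the counts of these lists lie near the background and are given as description only. With library totals the split was 19 higher and 31 lower, with limma on log2(FPKM + 0.5) 19 and 30, and with limma on TPM 15 and 32, given as higher and lower. The split moved the other way with upper-quartile scaling, to 29 and 25, and for protein-coding transcripts only, to 27 and 23. The median log2 change of all genes tested was 0.02 with TMM, 0.09 with upper-quartile scaling, -0.13 with library totals and -0.27 on TPM. Small changes thus hold relative to the scaling.

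On the droplet surface, 2 of 13 tested genes were higher and 7 lower, with a median log2 change of -0.23. The shares over all genes tested were 36.5% higher and 36.3% lower. METTL7A, a droplet-associated methyltransferase, fell to 4.36 ± 0.626 CPM in hypoxia, against 27.2 ± 1.90 CPM in normoxia (SD, n = 3; 6.25-fold, edgeR adjusted p = 4.01e-09). The dehydrogenase HSD17B11 fell 2.20-fold and ACSL3, which activates fatty acids at growing droplets, fell 2.13-fold. The fusion proteins CIDEA and CIDEC had 2 counts and 1 count over all libraries.

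For droplet assembly, 3 of 11 tested genes were higher and 4 lower (median 0.06), against 36.5% and 36.3% of all genes tested. FITM2, which helps droplets bud from the endoplasmic reticulum, rose 1.68-fold, to 19.9 CPM in hypoxia, against 11.9 CPM in normoxia. PCYT1A, which makes the phosphatidylcholine that covers droplets, fell 1.84-fold. TMEM68 and SPAST fell 1.46-fold and 1.38-fold in edgeR, and SPAST did not pass for its most abundant transcript alone (adjusted p = 0.243). Seipin (BSCL2) stood at 7.05 CPM in hypoxia and 6.41 CPM in normoxia (edgeR, adjusted p = 0.272).

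Of 12 other lipases tested, 6 were higher and 3 lower (median 0.255), against 36.5% and 36.3% of all genes tested. The phospholipase DDHD1 rose 2.62-fold and the carboxylesterase CES2 1.88-fold, and DDHD1 did not pass for its most abundant transcript alone (adjusted p = 0.53). The log2 change of DDHD1 was 1.39 in edgeR, 0.71 with limma on log2(FPKM + 0.5) and 0.59 on TPM, and its mean was 4.25 FPKM in hypoxia and 2.42 FPKM in normoxia. ABHD6 fell 2.46-fold, and NCEH1, a cholesterol ester hydrolase, fell 1.83-fold. Hormone-sensitive lipase (LIPE), which follows PNPLA2 in fat cells, was below the filter, at 0.350 CPM in hypoxia and 0.202 CPM in normoxia.

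Of 9 other acyltransferases of neutral lipids, 2 were tested and 1 was lower, where 36.3% of all genes tested were lower. SOAT1, which makes cholesterol esters, fell 2.02-fold, to 38.7 CPM in hypoxia, against 78.2 CPM in normoxia (edgeR, adjusted p = 1.18e-08). The other 7 genes, among them MOGAT2 and SOAT2, were under 1 CPM in both groups.

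Of 12 tested genes of fatty acid uptake and binding, 7 were higher and 5 lower in edgeR (median 0.28), where most genes tested were called (36.5% higher and 36.3% lower). FABP6, an ileal bile acid binder, rose 7.55-fold from low counts (1.93 CPM in hypoxia and 0.253 CPM in normoxia), and FABP3, the heart type, rose 2.42-fold. FABP5, the epidermal type, fell 3.26-fold and SLC27A2, an acyl-CoA synthetase, fell 2.78-fold. FABP4, FABP7 and FABP12 had 0 counts.

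All 17 regulators of droplet genes were tested. Of these, 8 were higher and 7 lower (median -0.03), against 36.5% and 36.3% of all genes tested. CEBPB, a factor of fat cell formation, rose 3.27-fold and NR1H2, an oxysterol receptor, 2.50-fold. PPARGC1B, a coactivator of fat oxidation, fell 3.13-fold and FOXO1, known to activate PNPLA2 in fat cells, fell 1.95-fold. PPARA, a lipid-sensing receptor, stood at 42.8 CPM in hypoxia and 55.4 CPM in normoxia (log2 change -0.37, adjusted p = 3.05e-05 in edgeR).

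**Figure D5:**
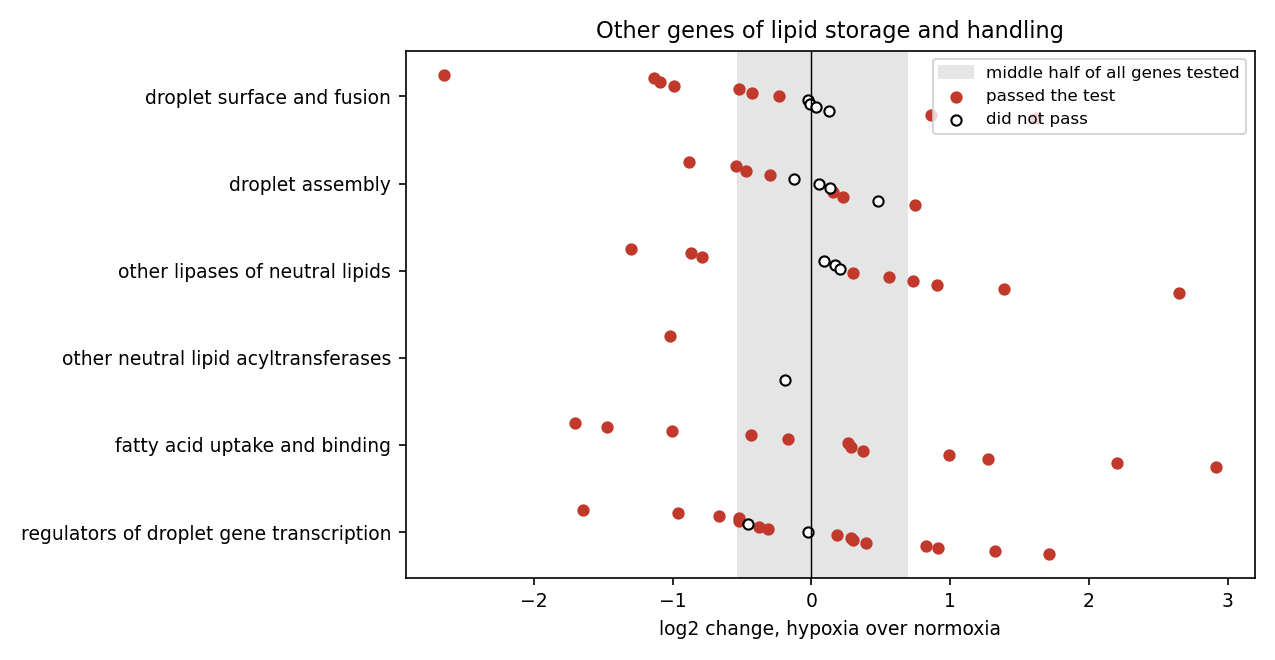
Log2 change (hypoxia over normoxia) of each tested gene in 6 lists of lipid storage and handling; filled points passed the edgeR test, open points did not, and the grey band lies between the quartiles of all genes tested. Points lie on both sides of 0 in 5 of the lists, and METTL7A is at -2.64.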

How the data were processed

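The authors deposited a table with 251062 Ensembl transcript rows. Its expected counts are RSEM estimates per transcript, with a transcript length (per the file headers). Per the submitters' processing notes, cutadapt, HISAT2, RSEM and GRCh38 (hg38) were used, with versions not given in the sources used here. Of the rows, 202907 matched GENCODE release 29 and the other 48155, with 6.12% to 6.39% of counts, were left out. Expected counts were summed per gene and rounded, kept by filterByExpr, scaled by TMM and tested with edgeR 4.0.16 (two-sided quasi-likelihood test, Benjamini-Hochberg adjusted over 17396 genes, threshold 0.05), after a test on simulated data. The SE is the log2 change over the square root of F. CPM uses TMM-adjusted library sizes. The 6 deposited FPKM columns were not used, because the table's columns name a group and no sample and only 1 measure was kept. FPKM here is the expected count divided by the deposited length (not the effective length) and the library total, summed per gene, and TPM is that value scaled to the same total in each library. Totals were 37621426 to 40794783 counts per library. Columns carried no replicate number of the labels, so libraries were assigned to groups only. Library pairs within a group differed beyond sampling noise (chi-square over its degrees of freedom 4.6 to 11).

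The members and lists were chosen with earlier results of these data known. The text names all 10 members, in the other lists up to 4 called genes with the largest change at FPKM 1 or more in a group, and 3 neighbours of HILPDA on each side. CA9, VEGFA, TF, LIPE, PPARA, BSCL2, CIDEA, CIDEC, SOAT2, TNFAIP8L1, TICAM1 and the genes at 0 were named after their values were seen. Ratios, and the share held by each gene's transcript with the highest FPKM, were compared by exact permutation tests. Alternatives were DESeq2 1.42.0, limma 3.58.1 on log2 FPKM with pseudocounts of 0.1, 0.5 and 1 and on log2 TPM with 0.5, other filters and scalings, other sums of transcripts, and leaving out each library.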

Additional observations from a re-analysis of the deposited data

How the results depend on the processing

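HILPDA, PLIN4, PNPLA2, ABHD5 and DGAT1 kept their direction and stayed past the threshold under each alternative in which they were tested, where the most abundant transcript is the one with the most expected counts. PLIN4 was tested in only 12 of the 17 alternatives, with log2 changes of -9.16 to -2.00. The -9.16 is that of PLIN4-201 alone, which held 0 counts in hypoxia. It follows how reads were divided, since PLIN4-202 held all hypoxia counts and did not pass (0.47, edgeR adjusted p = 0.856). The transcripts with the highest FPKM did not pass for DGAT1 (DGAT1-203, log2 change -0.22, edgeR adjusted p = 0.467) and ABHD5 (ABHD5-205, -1.10, adjusted p = 0.111). The number of the 10 genes higher in hypoxia was 2 in the edgeR fit and 1 with library totals, with limma on FPKM (pseudocounts of 0.1, 0.5 and 1), with limma on TPM and for the most abundant transcript. It was 1 to 2 when libraries were left out 1 at a time, and 1 without normoxia C2 or normoxia C3. The number lower was 6 in edgeR and 4 to 6 over the alternatives. PLIN3 reversed to -0.01048 with library totals and to -0.1618 with limma on TPM. Its call was also lost without a low-count filter (0.11) and for its most abundant transcript (0.12). PLIN5 (-1.22) and DGAT2 (-1.39) did not pass for their most abundant transcript. The size of some log2 changes depended on the scale more than their call did: over the alternatives it was -0.59 to -0.24 for DGAT1, -1.39 to -0.36 for DGAT2, -1.22 to -0.37 for PLIN5, 0.39 to 0.86 for FITM2, -0.85 to -0.38 for SPAST, 0.58 to 0.99 for CES2, 0.84 to 1.47 for FABP3 and 1.81 to 9.01 for FABP6. Among the 6 other lists, 26 genes were higher in edgeR, against 15 with limma on TPM, 17 for most abundant transcripts and 29 with upper-quartile scaling. The share of PNPLA2-201 differed by -3.41 points in FPKM and -4.69 points in expected counts. The cause was not tested for any of these. Low counts limit what can be said of PLIN2, G0S2, PLIN4 and PLIN5. No paired analysis was possible because the table's columns carry no replicate number that ties them to the labels.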
